A study of Arabidopsis thaliana with 44 samples.

Results

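Cauline leaves are the small leaves that sit on the flowering stem of Arabidopsis thaliana. They were represented here by 2 of the 18 input libraries of a 9-tissue atlas, which belongs to a series of 44 libraries, and were chosen by the tissue named in the labels and the column headers. Their transcriptome was set against the 16 input libraries of the 8 other tissues: flower, root, rosette leaf, seed, seedling, shoot, silique and stem. In that comparison 1168 of 21805 genes tested stood above every other tissue and 690 below every other tissue. m6A was then compared at 126371 of 188282 listed sites, 9865 of them in the genes above every other tissue and 2984 in those below.

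The series mapped N6-methyladenosine (m6A) at single bases with m6A-SAC-seq, in which an enzyme tags m6A so that reverse transcription leaves a mismatch at the tagged base. Each tissue gave treated (tagged) and input (untagged) poly(A) RNA libraries from 2 biological replicates, and the inputs serve here as ordinary RNA-seq. All plants of the 9 tissues were wild type, accession Col-0, with no treatment. A further pair of groups is used only at the end, for m6A: mta mutant seedlings at day 8 (ABI3::MTA/mta, in which the ABI3 promoter, active in embryos, drives the only MTA copy) and Col-0 seedlings, whose age in that experiment is not stated. Seedlings were taken at day 7 and shoots and roots at day 14 from plates, rosette leaves at day 30 from soil, cauline leaves, stems, flowers and siliques after flowering, and seeds when fully dry. The sources used here do not state the age of the cauline leaves in days, the number of plants behind a replicate or the hour of harvest. The labels spell the tissue "canline leaf" and the tables "cauline", and both were taken as the same tissue.

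A leaf turns carbon dioxide into sugar with light-harvesting antennae and the Calvin cycle, and late in its life it dismantles chlorophyll and exports nitrogen, a program called senescence that is run largely by NAC and WRKY transcription factors. Leaves also carry the salicylic acid and jasmonate defence systems, which act mainly against biotrophic pathogens, and against chewing insects and necrotrophs, respectively. The cauline leaf differs from the rosette leaf in forming after the switch to flowering, when SOC1, FUL and FT, the integrators and the mobile signal of that switch, are active. m6A is placed on mRNA by a writer complex around MTA, removed by ALKBH demethylases and read by ECT proteins, and in plants it is densest near the stop codon and in the 3′ UTR.

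The 2 cauline leaf inputs held 6903234 and 3355823 reads in genes, the highest and the lowest of the 18, and the other 16 held from 3864820 to 5959069. Levels are given as CPM, read counts scaled to library size with TMM factors, and they compare libraries for a gene, not genes with each other. The label was checked against markers of green tissue and of other organs. The 20 antenna genes summed to 103000 and 114000 CPM in the cauline leaf inputs, beside 224000 and 214000 in rosette leaf, 111000 and 104000 in stem, 37400 to 80800 in seedling, shoot, flower and silique, and 313 to 581 in seed and root. This sum sets green tissue apart from root and seed, not the cauline leaf from stem. Meristem markers (STM, WUS, KNAT1, CUC1) were at 0 in both libraries. Root markers summed to 0.775 and 1.29 CPM, against 11400 and 11500 in root, and RHD6, COBL9, EXPA7, BGLU23, PHT1;1 and CASP1 were at 0. Seed storage markers summed to 4.34 and 6.45 CPM, against 176000 and 185000 in seed, and stem wall markers to 12.9 and 19.7, against 3970 and 4070 in stem. Flower markers summed to 42.1 and 36.8 CPM, against 1690 and 1740 in flower and 0.877 to 30.9 in seed, root, seedling, shoot, stem and rosette leaf. AP3 and SEP2 were at 0. By the rule given below, 2 of the 7 flower markers were called higher than the mean of the other tissues and 0 lower. Against rosette leaf 4 were called higher. Over all genes these shares were 17.0%, 11.0% and 17.7%. In bulk tissue, fewer cells of a type and less RNA per cell cannot be told apart.

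Libraries were also compared by the root mean square difference of log2 CPM over all genes tested, with edgeR's default prior count added. Between a cauline leaf input and an input of another tissue it was smallest for stem at 1.234 and for shoot at 1.299. Seedling (1.486) and rosette leaf (1.497) followed, then flower (1.812), silique (2.048), root (2.382) and seed (2.822). The 2 cauline leaf inputs differed from each other by 0.415.

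A gene was called where its adjusted p was under 0.05 and its change at least 2-fold in edgeR's quasi-likelihood test of the cauline leaf against the mean of the 8 other tissues. In all 3713 genes were called higher (17.0% of those tested) and 2398 lower (11.0%). Such a mean of logarithms is pulled by tissues with no reads. Of all genes tested 6040 (27.7%) had another tissue at 0, seed in 4582 of them. Of the genes called higher 1370 (36.9%) had one, seed in 1071 of them, and no gene called lower had one. The sets described first were therefore the called genes with both cauline leaf inputs above all 16 others (1168 genes, 5.36% of those tested) or below all 16 (690 genes, 3.16%). In each of the 8 comparisons with a single tissue, 256 genes were called higher (1.17%) and 138 lower (0.633%). The runner-up of the 1168 genes was stem for 436 (37.3%) and rosette leaf for 232 (19.9%), and the next lowest tissue of the 690 genes was stem for 349 (50.6%) and seed for 121 (17.5%). With seed left out, 1592 genes lay below every other tissue and 1626 above. With rosette leaf left out, the numbers were 778 and 1659.

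The genes with the widest gap above the rest were a patatin-like lipid hydrolase, defence genes, a metal-chelator synthase and regulators of senescence. PLP2 (AT2G26560, chr2:11293702-11295918 of TAIR10.1), a patatin-like phospholipase induced in defence, was at 640 and 625 CPM, while the other 16 inputs ran from 0.626 to 33.8 with a median of 3.11. Its level was 19.1-fold that of the next tissue, shoot (log2 fold change 4.25, SE 0.07, adjusted p printed as 0). PR1 (AT2G14610, chr2:6241640-6242541), the classic marker of the salicylic acid response, was at 137 and 134 CPM against 0 to 10.1 elsewhere (median 0.156), 17.7-fold above rosette leaf (SE 0.15 on a log2 change of 4.15, adjusted p = 6.68e-163). Lack of overlap with any other tissue was a condition for choosing both genes.

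CORI3 (AT4G23600, chr4:12310379-12313212), a cystine lyase induced by jasmonate and coronatine, was at 583 and 604 CPM against 0 to 49.6 (median 10.1), 12.4-fold above rosette leaf (log2 change 3.63, SE 0.08). The plant defensin PDF1.2 (AT5G44420, deposited as PDF1.2A) was at 30.4 and 26.1 CPM against 0 to 2.07, and its close copy PDF1.2C (AT5G44430) at 19.5 and 18.1 against 0 to 1.66. These copies are nearly identical, so how reads were divided between them is uncertain. ACT (AT5G61160), an acyltransferase, was at 66.6 and 73.5 CPM with a median of 0 elsewhere and up to 7.86 in shoot. All 3 were at least 10.3-fold above the runner-up tissue.

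NAS3 (AT1G09240, chr1:2984829-2986231), which makes the iron and copper chelator nicotianamine, was at 356 and 342 CPM against 0 to 40.9, 8.85-fold above flower (log2 change 3.15, SE 0.08). SEN1 (AT4G35770, chr4:16944878-16946266, deposited as STR15), a gene induced by darkness and leaf ageing, was at 2150 and 2120 CPM against 3.54 to 326 (median 90.8), 6.68-fold above seedling (SE 0.05 on 2.74). Its rosette leaf inputs were among the lowest, at 4.09 and 4.19 CPM. NAP (AT1G69490, chr1:26122080-26123514, deposited as NAC029), a NAC factor that drives leaf senescence, was at 218 and 195 CPM against 0 to 33.0, 6.44-fold above flower (SE 0.09 on 2.69). The other 3 genes of the 12 have no described name in the files: AT1G64360 (300 and 293 CPM against at most 21.3), AT4G11890 (58.0 and 59.0 against at most 8.28) and AT2G40435 (26.8 and 23.2 against at most 3.22).

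**Figure D1:**
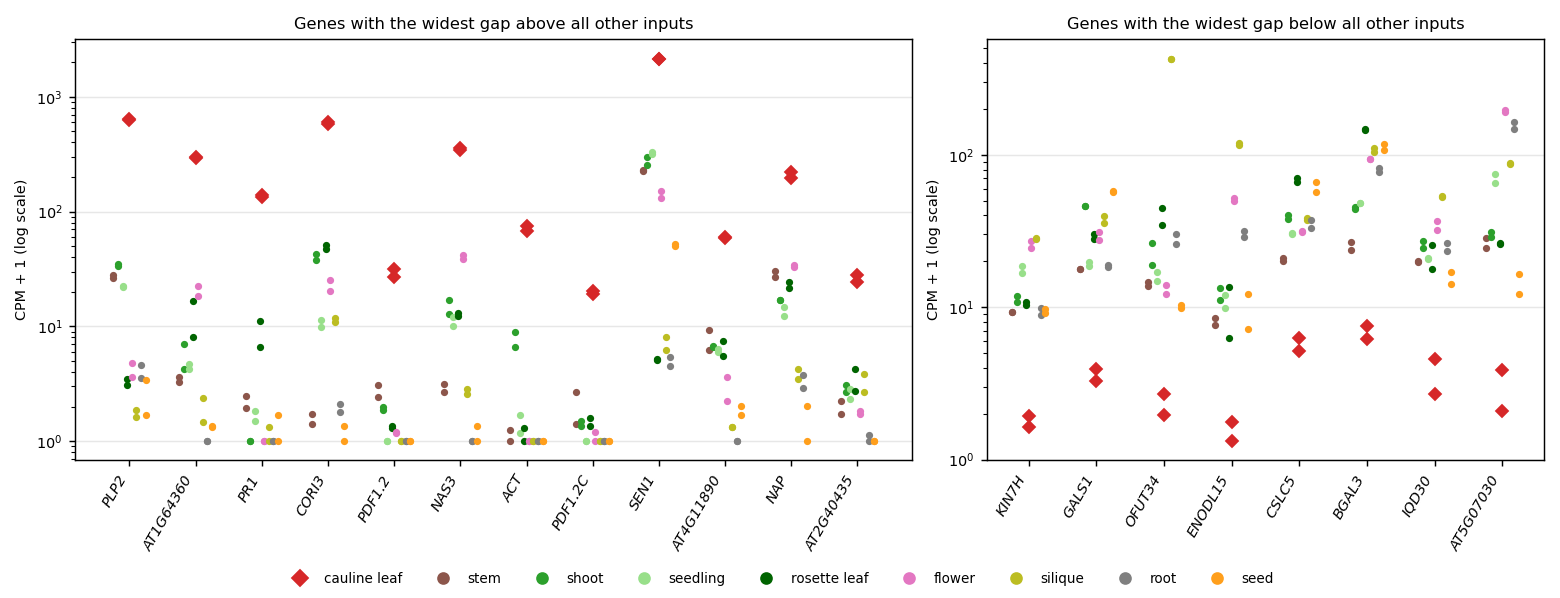
CPM + 1 on a log axis in each of the 18 input libraries for the 12 genes with the widest gap above all other inputs (left) and the 8 with the widest gap below (right). Each point is 1 library, diamonds are the 2 cauline leaf inputs and colours mark the tissue. PLP2 lies at 640 and 625 CPM over a maximum of 33.8 elsewhere, and GALS1 at 2.94 and 2.26 CPM under a minimum of 16.8.

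Further genes with wide gaps were chosen after their values were seen, and do not stand for the rest of the set. NAC092 (AT5G39610), also called ORE1, a promoter of leaf senescence, was at 186 and 188 CPM against at most 39.8 in seedling. PAO (AT3G44880), the oxygenase that opens the chlorophyll ring, was at 557 and 560 CPM against at most 143 in seed. The thaumatin-like PR5 was at 229 and 245 CPM against at most 60.3 in stem, and CRK6, a cysteine-rich receptor-like kinase, at 46.0 and 43.2 against at most 7.31 in rosette leaf. CCL, a transcript under clock control, was at 3600 and 3610 CPM against at most 712 in flower. The chloroplast protease subunits CLPD (1520 and 1560 CPM, at most 515 elsewhere) and CLPP5 (1160 and 1150, at most 271) also stood above every other tissue, as did the amino acid permease AAP4 (303 and 305, at most 92.3).

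Of the 8 genes furthest below the rest, 3 make or modify cell walls and 1 encodes a kinesin. KIN7H (AT5G66310, chr5:26485666-26491721), a kinesin of the family to which the cytokinesis kinesins HINKEL and TETRASPORE belong, was at 0.93 and 0.645 CPM against 7.94 to 27.5 (median 9.77), with stem the next lowest (log2 change -3.27, SE 0.41, adjusted p = 2.21e-14). GALS1 (AT2G33570, chr2:14216771-14219252), a galactan synthase of pectin, was at 2.94 and 2.26 CPM against 16.8 to 56.9 (log2 change -2.62 from stem, SE 0.26). CSLC5 (AT4G31590), a glucan synthase of the xyloglucan family, was at 5.27 and 4.19 CPM against 19.0 to 69.6, and BGAL3 (AT4G36360), a wall beta-galactosidase, at 6.51 and 5.16 against 22.6 to 146. Lying below every value of the other tissues was a condition for choosing these 4 genes.

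ENODL15 (AT4G31840), an early nodulin-like protein, was at 0.775 and 0.323 CPM against 5.24 to 118, and OFUT34 (AT5G15740), a putative O-fucosyltransferase, at 1.70 and 0.968 against 8.81 to 427, the highest value being in silique. IQD30 (AT1G18840), an IQ-domain protein, was at 1.70 and 3.55 CPM against 13.2 to 52.9, and AT5G07030 at 1.08 and 2.90 against 11.2 to 195. For IQD30, OFUT34 and AT5G07030 the next lowest tissue was dry seed.

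Most genes of the cytosolic ribosome, which makes the cell's proteins, were lower. Of 201 tested genes with such symbols, a list chosen after values were seen, 166 were called lower and 0 higher, 105 of them below every other input, beside 11.0% of all genes called lower. Their median difference from the other tissues was -1.47 on the log2(CPM + 1) scale, against -0.15 over all genes tested, and 168 were called lower without seed. Against stem alone 37 were called lower and 0 higher, with a median log2 change of -0.70. Over all genes tested 2868 were lower than stem and 1834 higher. The listed genes summed to 8160 and 8130 CPM in the cauline leaf inputs, 11800 in each seed input and 13200 and 13300 in stem. RPL30B was at 18.3 and 16.4 CPM against 40.8 to 190, with stem next at a log2 change of -1.30 (SE 0.13, adjusted p = 2.00e-21). RPS25B was at 29.9 and 24.8 CPM against 65.8 to 210 and RPL32A at 35.0 and 35.2 against 75.6 to 300. Fewer cell cycle genes were called, and more once dry seed was left out, when calls lower over all genes rose from 2398 to 3352. Of 23 tested A- and B-type cyclins and CDKB kinases 7 were lower (17 without seed) and 1 higher, CYCA3-2 (0.775 and 0.968 CPM against 1.73 to 24.9) and CYCA2-2 lying below all other inputs. Of the 6 subunits of the replicative helicase, MCM2 to MCM7, 3 were lower (6 without seed) and 0 higher, with MCM4 at 0.465 and 0 CPM against 0.828 to 19.1. Among 18 tested alpha-expansins, which loosen growing walls, 6 were lower and 2 higher, with 8 and 0 without seed and 11 and 0 in limma. These lists were chosen after values were seen too.

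Some short sequences, which the choice of genes did not use, were more frequent in promoters of the low genes than in those of all tested genes. Promoters were taken as the 300 bases from 250 before to 50 after the gene start in TAIR10.1, on either strand. The site II element TGGGCC was present in 31.8% of 689 promoters of genes below all other tissues. The share was 26.4% once the listed ribosomal protein genes were left out, and 17.6% of the 21674 promoters of tested genes. The telo-box AAACCCTA was present in 20.8%, 15.6% and 5.44%, in the same order. Among the 201 listed ribosomal protein genes the shares were 62.2% and 49.3%. That list goes by symbol and misses some ribosomal protein genes below all other inputs, such as RPSAA, RPP1A and RPP1C. These stayed in the reduced set. Genes above all other tissues held the site II element in 12.3% of 1142 promoters and the telo-box in 2.63%. The evening element AAATATCT, a clock-bound motif, was present in 10.6% of them and in 5.91% of all. The W-box forms TTGACC (15.8% against 14.6%) and TTGACT (25.5% against 22.1%) and the G-box CACGTG (8.41% against 8.75%) were closer to their overall shares. No test was made of these shares. None of the genes below all other tissues had another tissue at 0 reads, beside 6040 (27.7%) of all genes tested. The part of such broad expression in these shares was not tested.

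Many photosynthesis genes were higher in the cauline leaf than in the mean of the other tissues, level with stem and below rosette leaf in their medians. Each list's counts stand beside 17.0% of all genes called higher than the mean and 11.0% called lower, and without seed beside 3384 genes higher and 3352 lower. Of 20 antenna genes, 20 were called higher, 15 without seed, and none lay above all other inputs. LHCA2 was at 9350 and 10300 CPM against a median of 2740 and a high of 12100 in rosette leaf. Against rosette leaf alone 17.7% of all genes were called higher and 19.2% lower, so 47.9% of the calls were higher, and 64.2% when scaled by library totals alone. There 0 antenna genes were higher and 10 lower. LHCB2.3 was furthest apart, at 380 and 386 CPM against 4630 and 4520 in rosette leaf (log2 change -3.58, SE 0.06), and LHCB1.5 was level with it (0.00). In the Calvin cycle 10 of 18 genes were higher than in the mean of the others, 4 without seed and 16 without rosette leaf, while 16 of 18 were lower than in rosette leaf. RBCS1A, a small subunit of Rubisco, was at 5520 and 5970 CPM against 33600 and 30600 in rosette leaf. FBA1, a plastid aldolase, was at 279 and 329 CPM against 6560 and 6170 (log2 change -4.41, SE 0.06). The list's median difference from rosette leaf was -2.01 in log2(CPM + 1). Against stem, 0 antenna genes were higher and 1 lower, and 1 Calvin cycle gene was higher and 0 lower.

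Photorespiration genes, which recycle the product of Rubisco's side reaction, were counted alike, with 8 of 11 higher than the mean of other tissues and 7 lower than rosette leaf. AGT, the peroxisomal aminotransferase, was the 1 member above every other input, at 3070 and 3190 CPM against at most 2670. Only CP12-2, a regulator of the cycle, did so among the Calvin genes, at 497 and 491 CPM against at most 408, and both margins were small (log2 change from rosette leaf 0.29, SE 0.05, and 0.31, SE 0.06).

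Leaf senescence genes rose, and most of them stood above every other tissue. Of 17 genes 16 were called higher, 0 lower and 10 were above all other inputs, beside 5.36% of all genes, and all 17 were called higher than in rosette leaf. The list's median difference from rosette leaf was 3.75 in log2(CPM + 1), against 0 over all genes. The chlorophyll catabolic genes did not share a rank: NYC1, the chlorophyll b reductase, was at 929 and 868 CPM, level with the highest seed input at 868 (log2 change 0.06, SE 0.05, adjusted p = 0.30). PPH, which removes the phytol tail, was at 578 and 551 CPM under a seed maximum of 1050, and NYE1 (deposited as SGR1) at 137 and 126 under 1580 in seed. PAO alone of these was well above seed, by a log2 change of 2.04 (SE 0.07).

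Regulators and remobilisation genes of the list followed. WRKY53, an early senescence factor, was at 64.8 and 71.3 CPM against at most 41.6 in root, and 2.92 and 2.45 in rosette leaf. NAC3 (AT3G29035) was at 126 and 118 CPM against at most 28.3. GLN1;1, a cytosolic glutamine synthetase, was at 479 and 478 CPM against at most 452 in flower and 26.0 and 25.2 in rosette leaf. ASN1, the asparagine synthetase induced by sugar shortage, was at 841 and 853 CPM, 5.56 and 9.78 in rosette leaf and up to 2150 in seed. The late marker SAG12, a cysteine protease, was called higher than the mean at only 1.86 and 0.968 CPM, while flower reached 562. WRKY6 was the member not called, at 34.2 and 32.2 CPM against 5.94 to 86.1.

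Salicylic acid genes rose as broadly. Of 18 genes 17 were higher and 0 lower, 17 were called higher without seed, 17 were higher than in rosette leaf, and 8 lay above all other inputs. Over all genes 17.0% were higher and 5.36% above all. PR2, a beta-glucanase (deposited as BGL2), was at 394 and 422 CPM against 0 to 126 (median 2.75), with stem next by a log2 change of 1.78 (SE 0.07). The regulators CBP60G (82.7 and 86.4 CPM, at most 35.8 elsewhere), SARD1 (37.2 and 30.0, at most 24.0), PBS3 (36.7 and 36.4, at most 16.3) and NPR1 (73.6 and 79.3, at most 65.3) also stood above every other tissue. WRKY70, at 132 and 131 CPM, was level with stem at up to 131. Root was higher than the cauline leaf for PAD4 (36.3 and 32.6 against up to 98.1), EDS5 (16.9 and 15.8, up to 140, the member not called) and FMO1 (3.25 and 2.26, up to 52.2). No pathogen treatment is named in the labels, and microbial reads were not analysed here.

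In the jasmonate list 10 of 15 genes were higher, 0 were lower and 4 lay above all other inputs. Without seed 7 were higher and 1 lower, and limma called 9 higher and 2 lower. LOX2, the plastid lipoxygenase that starts jasmonate synthesis, was at 2380 and 2380 CPM against 0 to 730 (median 167), 1.75 above rosette leaf in log2 (SE 0.05). The cyclases AOC1 (76.4 and 95.8, at most 65.2) and AOC2 (216 and 217, at most 87.9) were also above all others. The storage proteins VSP1 (10.1 and 8.38 CPM) and VSP2 (84.3 and 88.0) were not called and reached 1210 and 627 in flower. Root was higher for the repressor JAZ1 (90.3 and 91.9 CPM in the cauline leaf, up to 354 in root) and for the factor MYC2 (118 and 114, up to 349).

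**Figure D2:**
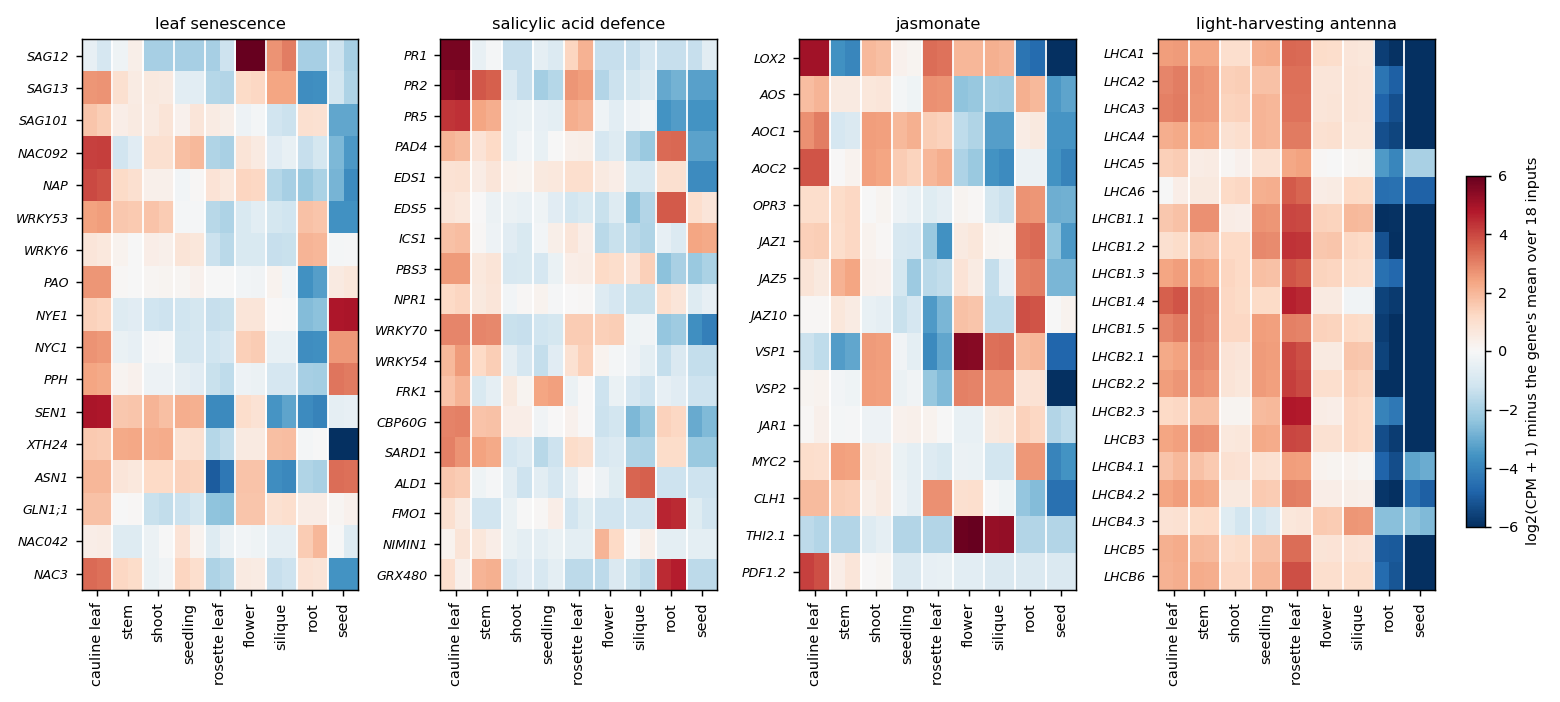
Log2(CPM + 1) minus the mean of the gene over 18 inputs, for the members of 4 lists (rows) in the 2 inputs of each tissue (columns). Red is above and blue below a gene's own mean, with the scale ending at 6 on either side. LOX2, PR1 and SEN1 are darkest in the cauline leaf columns, whereas most antenna genes are darkest in rosette leaf.

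For water deficit and cold, 8 of 15 genes were higher and 0 lower, beside 17.0% and 11.0% of all genes. ABI1, a phosphatase of abscisic acid signalling (185 and 199 CPM, at most 132), COR6.6 (325 and 285, at most 244) and NCED3, which makes an abscisic acid precursor (41.4 and 42.6, at most 35.7), were above all other inputs. NCED3 did not differ from shoot beyond the threshold (log2 change 0.23, SE 0.11, adjusted p = 0.064).

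Several genes of the floral transition were higher, 2 of them above every other tissue. SOC1 was at 206 and 195 CPM against 0 to 129, with stem next (log2 change 0.69, SE 0.07), and 43.6 and 34.9 in rosette leaf. FUL (deposited as AGL8) was at 87.2 and 81.9 CPM, level with stem at up to 83.0 and against 1.17 and 0 in rosette leaf. FT was at 62.9 and 55.1 CPM, 1.75 and 3.14 in rosette leaf, and highest in silique at up to 237. SPL4, a factor of the age pathway, was at 47.4 and 48.7 CPM against at most 28.4 in flower. FLC, the floral repressor, was at 0 in both libraries and was called lower, while the meristem identity genes AP1 and CAL were at 0 and SVP at 105 and 110 was level with rosette leaf. In all 7 of 15 genes were higher and 1 lower, with 6 and 4 without seed and 6 and 5 in limma. Against stem 2 were higher and 7 lower, and the list's median difference from the 8 tissues was -0.47 in log2(CPM + 1).

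Leaf polarity genes did not all change one way. Of 19 genes, 10 were higher and 4 lower than the mean, 1 was higher and 6 lower than rosette leaf, and 10 were higher than stem. The abaxial YABBY genes, which mark lateral organs, were among the higher ones: YAB3 was at 28.7 and 26.8 CPM against 0 to 45.9. The adaxial REV (9.76 and 8.06 CPM against 13.5 to 67.0) and the abaxial ARF4 (12.6 and 13.2 against 15.9 to 165) lay below all other inputs. PHV, of the same class as REV, was higher at 81.3 and 84.8 CPM. Of 11 stomatal genes 4 were higher and 0 lower, all 4 of them acting in late or mature guard cells (FAMA, MYB60, KAT1, SLAC1). Limma called 2 higher and 2 lower, 7 were lower than in shoot, and the list's median was -0.55 in log2(CPM + 1). The lineage genes SPCH and EPF2 were at 0, as they were in 3 and 4 of the other tissues, respectively. Among 8 trichome genes 4 were lower, at 1.24 CPM or less, and TTG1 was higher at 115 and 113 CPM against at most 105.

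Wax genes were called no more often than all genes (13.3% of 15 higher and 6.67% lower, with 2 higher and 5 lower without seed), and 8 were lower than in rosette leaf. CER1, the alkane-forming enzyme, was at 36.3 and 35.5 CPM against 253 and 250 in rosette leaf (log2 change -2.81, SE 0.09). The glucosinolate list had 7 higher and 1 lower of 16, and 2 and 2 without seed. The myrosinase TGG1, a defence enzyme of guard and myrosin cells, was at 42 and 50.6 CPM against a median of 826 and 2600 and 2540 in rosette leaf (log2 change -5.83, SE 0.07). TGG2 was at 96.7 and 92.6 CPM against 967 and 995 there.

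**Figure D3:**
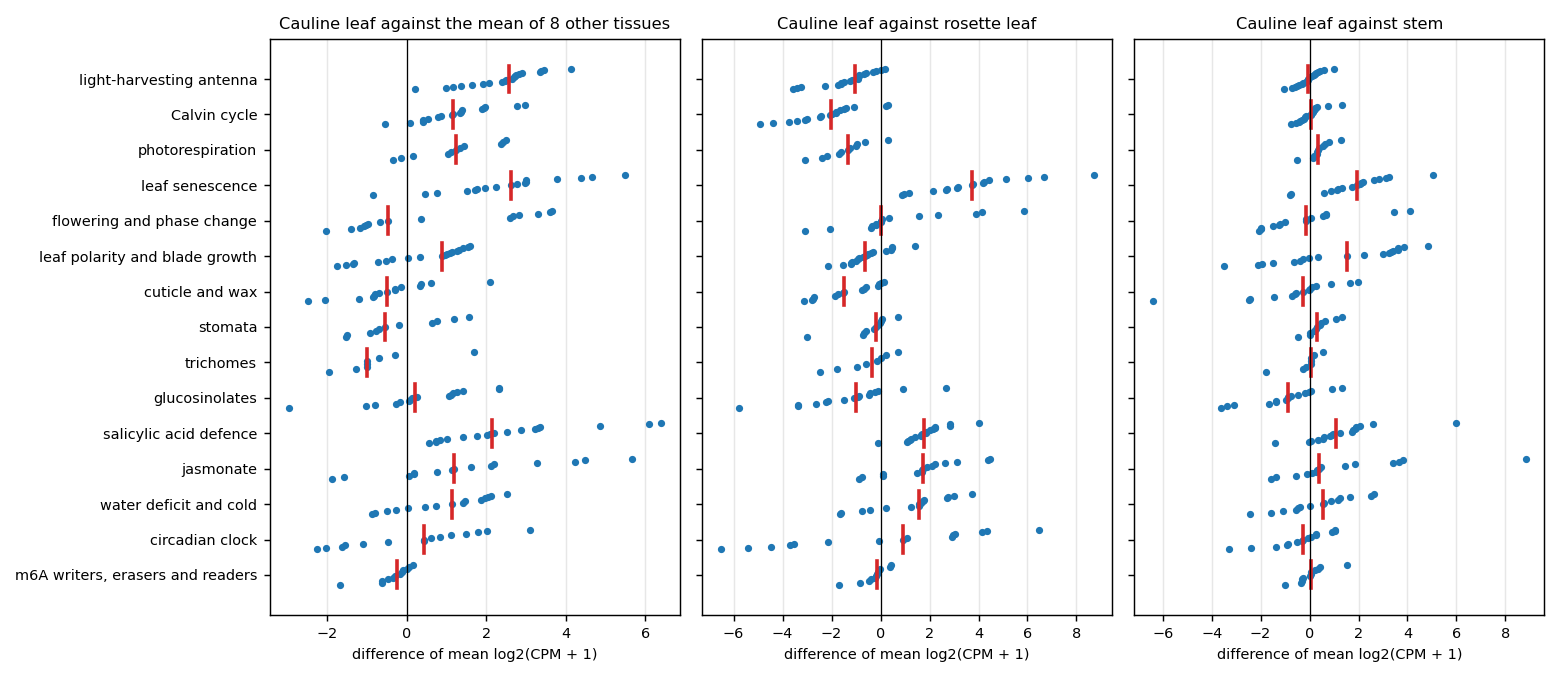
Difference of mean log2(CPM + 1) between the cauline leaf and the mean of 8 other tissues (left), rosette leaf (middle) and stem (right), with 1 point per tested gene of each list and the median as a red bar. The senescence median lies at 2.62 on the left and 3.75 in the middle, and the Calvin cycle median at 1.16 and -2.01.

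Clock genes separated the leaf tissues widely. The morning genes CCA1 (11.5 and 13.2 CPM) and LHY (4.96 and 5.48) were called lower and were at 593 and 554, and 604 and 542, in rosette leaf. PRR5, which peaks late in the day, was at 84.3 and 90.3 CPM, above all other inputs, and at 0 and 0 in rosette leaf. GI was at 170 and 171 CPM against 7.90 and 6.99 there and at most 143 in stem. In all 6 of 15 clock genes were higher and 5 lower than the mean, and 7 were higher and 6 lower than rosette leaf, beside 17.7% and 19.2% of all genes. The hour of harvest is not given, so tissue and time of day cannot be told apart in these genes, and its part in the other lists was not tested.

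Genes that write, erase or read m6A were mostly not called. Of 12 genes 0 were higher and 1 was lower: ECT3, a reader that acts in young growing organs, at 18.7 and 14.2 CPM against 29.7 to 79.0, below every other input (log2 change -1.65 from the mean, SE 0.10). MTA was at 11.5 and 8.38 CPM against 7.36 to 39.0 and ECT2 at 264 and 246 against 154 to 601. The median difference of the list was -0.23 in log2(CPM + 1), against -0.15 over all genes.

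The m6A of the tissue was read as the fraction of transcripts modified at a site, calibrated by the authors, with 1 value pooled per tissue. No test was therefore made of it, and 1 tissue against 8 cannot give an exact permutation p below 0.111. Sites were compared where the cauline leaf and at least 4 other tissues had a depth of 20 reads. At the 75935 sites with that depth in all 9 tissues the median fraction in the cauline leaf was 0.148, the second highest after silique (0.161). Seedling (0.135), shoot (0.132) and flower (0.131) followed, then stem (0.108), seed (0.096), rosette leaf (0.083) and root (0.073). In the 3′ UTR the cauline leaf ranked first, with a median of 0.338 against 0.272 in rosette leaf, and in coding sequence second, with 0.118 against 0.063. Spread between replicates of these fractions was not analysed here, so the order of close neighbours has no error. The sites compared were listed once passed in any tissue. Passed sites numbered 74871 in silique, 66034 in shoot, 62940 in the cauline leaf, 48907 in root and 29740 in rosette leaf. How far this choice of sites shaped the order was not tested.

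Sites of the genes that stood apart by expression had medians near the overall one. Over all 126371 comparable sites, in 12588 genes, the median difference of the cauline leaf from the mean of the other tissues was 0.0193. It was 0.0181 at 9865 sites of 916 genes above all other tissues and 0.0237 at 2984 sites of 336 genes below all. Those sites had median depths of 212 and 55 reads. At sites passed in another tissue the median difference was 0.0121 over all, 0.0107 in genes above all and 0.0187 in genes below all. In both sets the cauline leaf again ranked second after silique at sites covered in all tissues, with medians of 0.137 (4456 sites) and 0.159 (2910 sites).

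**Figure D4:**
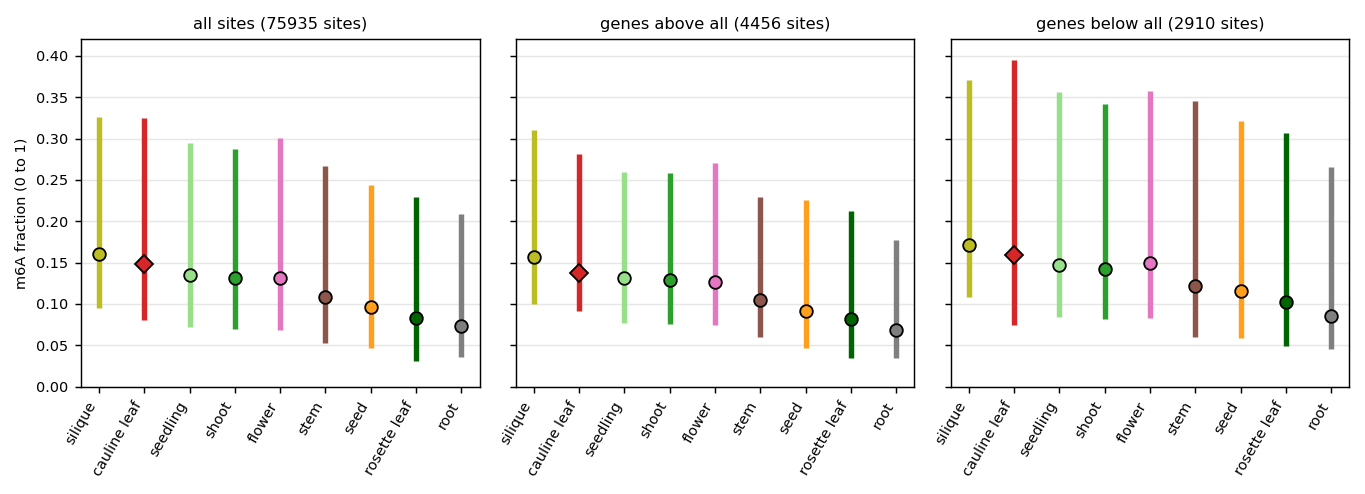
Median m6A fraction (points) and interquartile range (bars) in each tissue, at sites with 20 or more reads in all 9 tissues, for all such sites, sites of genes above all other inputs and sites of genes below all. The cauline leaf (diamond) lies at 0.148, 0.137 and 0.159, second after silique in each panel.

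A site was set apart where the fraction in the cauline leaf differed by at least 0.2 from the mean of the others and lay beyond each of them. Such sites numbered 7575 higher (5.99% of comparable sites) and 1689 lower (1.34%). In genes above all other tissues the shares were 3.74% (369 sites) and 0.578% (57), and in genes below all 7.98% (238) and 3.08% (92). Shares followed depth: among sites read 20 to 49 times in the cauline leaf 8.95% were higher, and among those read 200 times or more 3.18%. At that depth, genes above all held 2.29% higher sites and genes below all 5.12%. Sites enter the list once passed in any tissue, and 13062 were passed in the cauline leaf alone. At sites passed in another tissue 4432 were higher (3.81%) and 1689 lower. In genes above all, 149 of those sites were higher (1.72%) and 57 lower, and in genes below all 190 (6.64%) and 92. Of all 7575 higher sites 44.2% lay in the 3′ UTR and 50.8% in coding sequence, and of the 1689 lower ones 72.8% and 23.1%. By the same rule silique had 6.72% higher sites, shoot 4.34%, stem 3.24% and rosette leaf 2.79%.

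Sites in the DRACH motif, the usual context of the writer complex, are shown for genes that stood above or below all other tissues, as examples of the best-known motif. Each line gives 21 bases of TAIR10.1 on the strand of the transcript, with the 5-base motif in capitals and the modified A at its centre. The sites were picked from those with the largest differences, not strictly by size, and that of SEN1 for its depth. The values describe them and no more.
WCRKC2, chr5:1179969-1179989, minus strand: agatctttAAACCcaaagatc
NYC1, chr4:7684275-7684295, minus strand: gttgttgaAAACAatgaaaaa
GGH3, chr1:29593414-29593434, plus strand: gtaagttgTAACCaaggtgtt
RPS27A, chr2:18832085-18832105, plus strand: gctagtagTAACCcttctttg
SEN1, chr4:16945918-16945938, plus strand: gcgatcacAGACAttgctgga

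WCRKC2, a plastid thioredoxin-like protein, had a coding-sequence site at position 1179979 of chromosome 5. Its fraction was 0.781 at 209 reads in the cauline leaf, the only tissue where the authors' calling passed the site. The site therefore entered the list through the tissue where it was high. All 8 other tissues were low at 66 to 113 reads, from 0 in rosette leaf to 0.228 in silique, with a mean of 0.162 and an SD of 0.07. In NYC1, whose transcript was among the highest of any tissue, the 3′ UTR site at position 7684285 of chromosome 4 was at 0.276 with 780 reads. The 7 tissues with depth ran from 0.444 in flower to 1 in stem, seedling and rosette leaf (mean 0.835), and seed, with 913 reads and a similar transcript level, stood at 0.679. GGH3, a gamma-glutamyl hydrolase of folate metabolism, had a 3′ UTR site at 0.139 (215 reads) against 0.282 in stem to 1 in shoot. Among these chosen sites 1 was high and 2 were low, in genes whose cauline leaf inputs both lay above all 16 others, by a margin within the error for NYC1. That split does not stand for the set. Over all 3697 comparable DRACH sites of genes above all other tissues, 160 (4.33%) were higher and 36 (0.974%) lower. Sites passed in the cauline leaf alone, such as that of WCRKC2, were not left out of these counts.

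Ribosomal protein genes, low in expression, held sites that went both ways. The RPS27A site in the 3′ UTR was at 0 in the cauline leaf at 56 reads and between 0.26 (flower) and 0.732 (shoot) in all 8 others. RPL36C, with 56 reads, was also at 0 against 0.155 in silique to 1 in seed. In the other direction RPS12C had a 3′ UTR site at 1 with 148 reads, against at most 0.14 in 8 tissues. RPL21A (AT1G09590) had a coding site at 0.981 with 52 reads, against at most 0.215. Neither of these sites is in DRACH, and both were passed in the cauline leaf alone. RPS27A held 3 higher sites and 1 lower, RPL36C likewise, and RPL21A 4 higher. Over the 186 listed ribosomal protein genes with a comparable site, 160 of 1795 sites (8.91%) were higher and 45 (2.51%) lower, with a median depth of 109 reads. Sites passed in the cauline leaf alone were counted too.

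The largest differences of all were at the ends of the scale. Sites in CYP81D1, CRCK2, AT3G26510, AT3G18295, ML2 and AT1G01070 were at 1 in the cauline leaf, with 52 to 220 reads, and at 0 in each of the 6 or 7 other tissues with depth. None of these is in DRACH. Each was passed in the cauline leaf alone, and so entered the list through the tissue where it was high. All 6 belong to the class of remaining motifs, where 27.0% of comparable sites were at exactly 0 or 1 in the cauline leaf. That share was 15.4% in DRACH, 8.97% in RAC outside DRACH, 3.02% in GAU and 2.41% in GGAU.

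Among the 12 genes furthest above the rest, 6 had comparable sites, and the deepest DRACH site of each lay within the other tissues' range. CORI3 and SEN1 also held 1 higher site each among 7 comparable ones, 0.371 and 0.222 above the mean of the others. The deepest DRACH site of SEN1, in coding sequence and read 15855 times, was at 0.266, inside the range of the other 8 tissues (0.18 in seed to 0.682 in silique). That of CORI3 was at 0.105 (1328 reads) within 0.053 to 0.183, that of PLP2 at 0.148 (2605 reads) within 0.088 to 0.184, and that of NAP at 0.244 (695 reads) within 0.071 to 0.266. The upper end for CORI3 was silique at 23 reads, with flower next at 0.105. NAS3 (0.209, 1415 reads) lay inside through rosette leaf alone (0.377 at 30 reads), with seedling next at 0.157. AT1G64360 (0.404, 1650 reads) lay under flower (0.429 at 131 reads) and seedling (0.534 at 27 reads). NAS3 and AT1G64360 had only 4 other tissues at depth. PR1, PDF1.2, ACT, PDF1.2C, AT4G11890 and AT2G40435 had no site with depth in 4 other tissues. Of the 8 genes furthest below, 7 had no comparable site, and BGAL3 had 1.

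**Figure D5:**
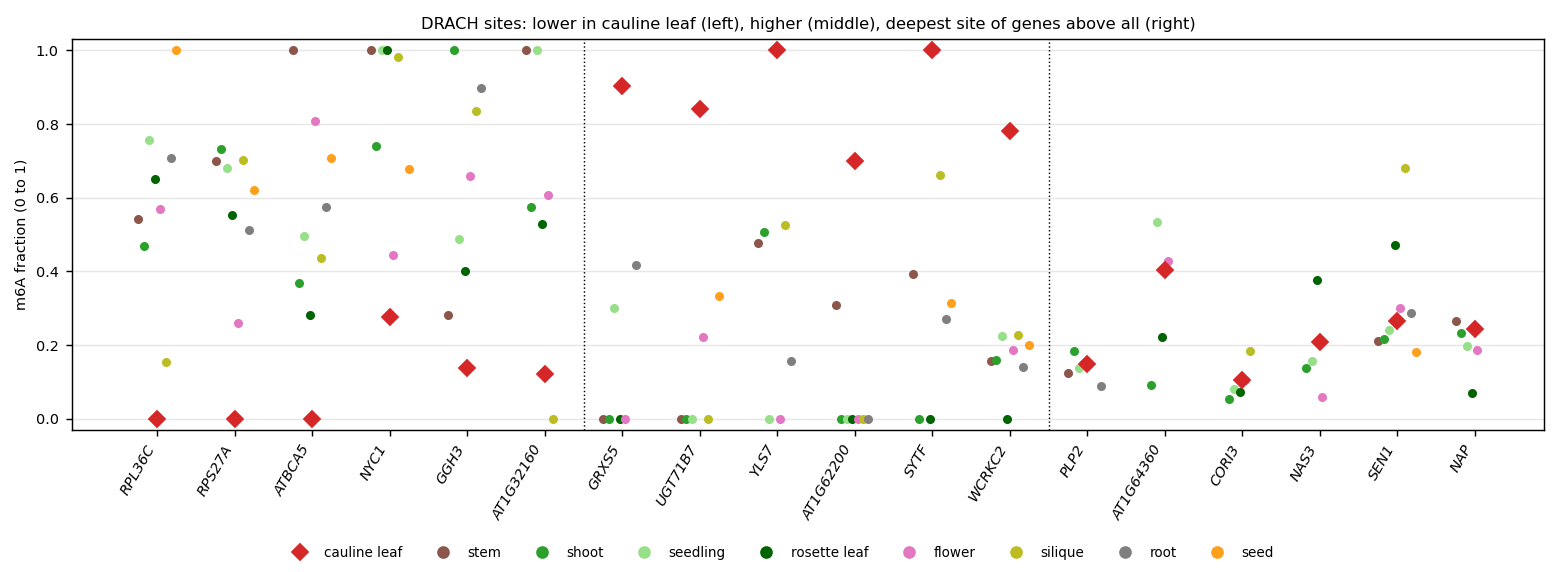
m6A fraction at DRACH sites in each tissue with at least 20 reads, for the 6 sites furthest below (left) and above (middle) the mean of the other tissues in genes that stand apart by expression, and the deepest site of 6 genes above all (right). Diamonds are the cauline leaf, and each point is the authors' pooled fraction of 1 tissue. WCRKC2 lies at 0.781 over a maximum of 0.228, NYC1 at 0.276 under a minimum of 0.444, and SEN1 at 0.266 within the other tissues. The WCRKC2 site was passed in the cauline leaf alone.

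Of the gene groups given next, Calvin cycle and antenna genes had the larger median differences, beside 0.0193 over all comparable sites. The median difference was 0.0401 at 179 Calvin cycle sites, 0.0308 at 138 antenna sites, 0.0221 at 165 photorespiration sites, 0.0191 at 162 senescence sites, 0.0186 at 42 salicylic acid sites and 0.0184 at 138 jasmonate sites. Depth there ran from a median of 124.5 reads (salicylic acid) to 5763 (antenna). Among the other lists the median difference ran from -0.0326 (14 stomatal sites) to 0.06 (10 expansin sites). It was 0.0289 at 1795 ribosomal protein sites and 0 at 107 leaf polarity sites. Sites past the rule, which made up 5.99% (higher) and 1.34% (lower) of all comparable sites, numbered 9 higher and 2 lower in the Calvin cycle list, 3 and 3 in the antenna list, 9 and 1 in photorespiration, 8 and 5 in senescence, 2 and 0 in salicylic acid and 13 and 0 in jasmonate. Sites passed in the cauline leaf alone were not left out of these counts. In the seedling experiment, which compared mta with Col in 1 pooled value each, sites of genes below all other tissues had a median fraction of 0.252 in Col and 0.203 in mta, with 59.4% of 1267 sites lower in mta. Sites of genes above all had 0.181 and 0.178, with 49.3% of 1444 lower, and all compared sites 0.213 and 0.195, with 52.2% lower.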

How the data were processed

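Poly(A) RNA inputs and m6A-SAC-seq libraries of 9 tissues were analysed, with 2 biological replicates per tissue. The gene tables hold raw read counts per gene as deposited by the authors, with no aligner or counter named in the labels or methods read here. The site table holds an m6A fraction and a depth per tissue, pooled over replicates and calibrated by the authors with the m6A-SACseq pipeline on TAIR10. The authors' own comparisons were not used. All 187374 nuclear sites matched their motif in TAIR10.1.

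Input counts of 32833 genes were filtered with filterByExpr, scaled with TMM and fitted in 1 edgeR 4.0.16 quasi-likelihood model over the 18 inputs (R 4.3.3), with Benjamini-Hochberg adjusted p under 0.05 and a fold of at least 2. The cauline leaf was contrasted with the mean of the 8 other tissues and with each of them. In simulated data of 19975 genes the adjusted p passed for 90% of genes raised 2-fold, 68% lowered 2-fold and 100% at 4-fold. These shares are for the first contrast and without the fold minimum, so fewer would be called at a true 2-fold change. The simulation gave all tissues the same mean, apart from the changed genes, and all genes the same spread, unlike the real tissues. The SE is the log2 fold change divided by the root of F. The 12 genes named as highest and 8 as lowest have the widest gap in log2(CPM + 1) between the nearest cauline leaf input and the nearest other input; differences of lists use a pseudocount of 1 CPM. Sites needed 20 reads in the cauline leaf and in 4 other tissues. Named sites needed depth in 6 other tissues, apart from the deepest site of a named gene. Members and gene lists were chosen with earlier results of these data known. Alternatives were DESeq2 1.42.0, limma 3.58.1, other scalings, filters, thresholds and left-out tissues or libraries.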

Additional observations from a re-analysis of the deposited data

How the results depend on the processing

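Leaving out 1 library at a time gave 1181 to 1347 genes above all other inputs and 691 to 1010 below, 3481 to 3797 higher and 2173 to 2395 lower than the mean, 3556 to 3877 higher and 3895 to 4239 lower than rosette leaf, and 2843 to 3056 higher and 3989 to 4743 lower than shoot. A fold of at least 4 left 1501 higher and 892 lower, 643 above and 284 below all, 1925 and 2001 against rosette leaf, and 1122 and 2375 against shoot. Calls in each of 8 single comparisons held 256 genes of the upper set and 135 of the lower. DESeq2 called 3633 genes lower, and 48.1% of its calls were higher, against 60.8% in edgeR, 50.2% without seed and 42.9% with limma. Library totals alone moved the median log2 fold change of all genes from -0.04 to -0.16, called 1775 genes higher than shoot, and took the share of higher calls there from 39.3% to 20.7%. Without seed 1592 genes lay below all and 1626 above all, and without rosette leaf 778 and 1659. The cause of these shifts was not tested.

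For m6A, sites past the difference numbered 3609 higher and 999 lower at 50 reads, 3761 and 781 with all 8 other tissues at depth, 3712 and 1058 in DRACH and RAC motifs, and 4527 and 1109 at a difference of 0.3. Sites passed in another tissue gave 4432 higher, and those passed in the cauline leaf 147 lower. The median at genes called lower was 0.0125 at 10 reads, 0.0276 at 50, 0.0148 at sites passed elsewhere and 0.0926 at those passed in the cauline leaf. At genes called higher the latter 2 gave 0.012 and 0.0567.

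Replicate numbers did not pair the libraries (0 of 36 tissue pairs correlated over 0.1), and a replicate block called 3708 genes higher and 2385 lower. Over 28 alternatives 74 of 93 named genes kept their call, 19 changed it in some and 0 reversed. The limma, rosette leaf and motif alternatives were chosen after seeing the data. Depth limits the m6A of genes low in the cauline leaf, where 46.7% of listed sites could be compared.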
